A study of Mus musculus with 6 samples.

Results

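Semaphorins, ephrins and Slits are guidance ligands, and plexins, neuropilins, Eph receptors and Robos are the receptors that bind them. The members were taken from the deposited gene table by symbol (semaphorins, plexins, neuropilins, ephrins of the A and B types, Eph receptors of the A and B types, Slit1 to Slit3 and Robo1 to Robo4). This gave 60 genes, 31 ligands and 29 receptors, of 23473 named gene rows and 56826 gene rows in all. RNA was sequenced from cortex of wild type C57BL/6 mice in 2 groups of 3 libraries each: cortex next to the lesion 24 h after traumatic brain injury (TBI), and cortex of normal mice (control). The labels name no sham operation, sex, age or injury device and do not say how many mice each library holds, so p-values measure the spread between these libraries. A sham group was not analysed here, and effects of surgery and of injury cannot be told apart.

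During development these ligands steer growing axons. Semaphorins signal through plexins, with neuropilins as the binding partner for most secreted class 3 semaphorins. Ephrins stay on the cell surface and bind Eph receptor kinases, so that both the ligand and the receptor cell can respond, and Slits are secreted repellents read by Robos. In the adult cortex the same genes are used at synapses and in blood vessels, and several of them, Sema3a, Epha4 and Efnb2 among them, have been studied as barriers to axon regrowth after injury of the central nervous system.

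Of the 60 genes, all of which passed the filter on low counts, 8 were higher and 16 lower in TBI than in control cortex, and 36 were not called (quasi-likelihood test of edgeR, adjusted p under 0.05 over all 42762 gene rows tested). The share of named gene rows called in the same fit was 15.4% higher and 10.7% lower, against 13.3% and 26.7% of the guidance genes. Over all gene rows tested, 9.12% were called higher and 8.36% lower. Among named rows with a mean of at least 1 RPKM (counts scaled by row length and library size), where 54 of the 60 guidance genes lie, 13.4% were higher and 13.0% lower. The median log2 fold change was -0.17 over the 60 genes and 0.02 over all named rows tested. Leaving out TBI replicate 1, TBI replicate 3 or control replicate 1 gave 5, 3 and 5 genes called higher. Of the 16 genes called lower, 11 to 14 were still called when any 1 library was left out. At least 1.5-fold higher were 3 genes, and 6 were at least 1.5-fold lower. How many named rows pass that cut was not counted. The receptors had a median of -0.28 with 2 higher and 9 lower of 29, and the ligands had a median of -0.02 with 6 higher and 7 lower of 31.

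**Figure D1:**
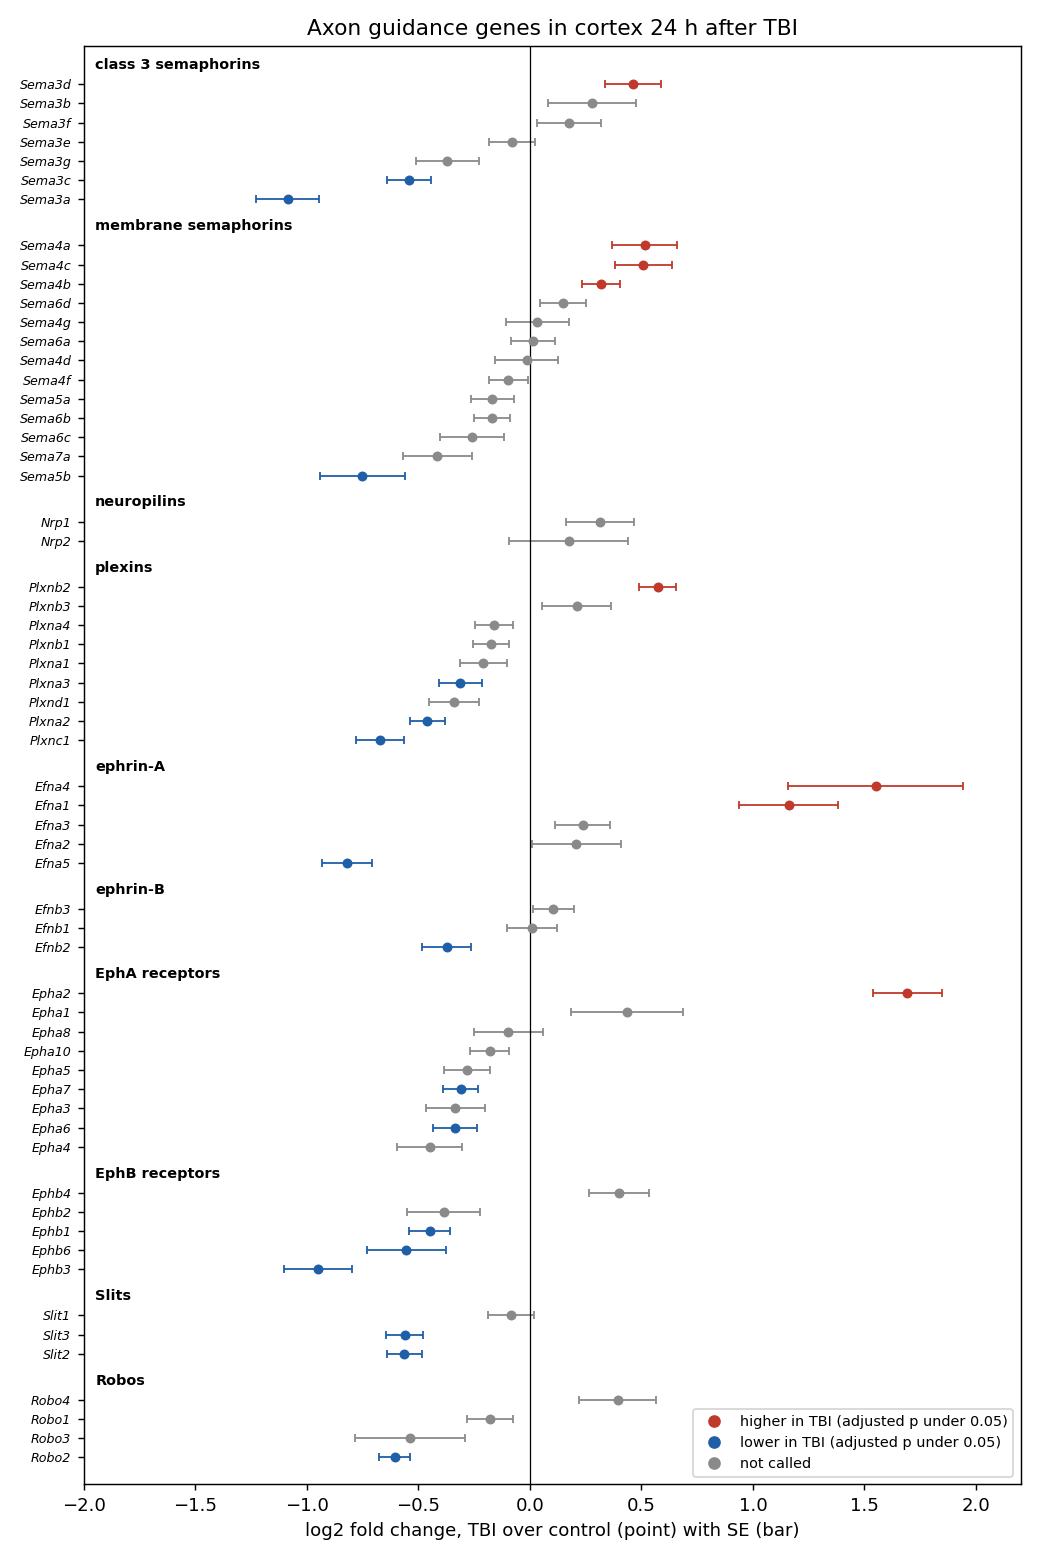
Log2 fold change of each of the 60 genes, TBI over control (x axis; points), with its SE (bars), grouped by family. Epha2, Efna4 and Efna1 lie above 1, Sema3a lies at -1.09, and all other genes lie within 1 of zero.

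The libraries held 68808787 to 72169720 counts over gene rows in TBI and 67252519 to 83929814 in control. Rows can share reads, so these totals can exceed the reads counted, whose number is not given. Control replicate 2 stood apart from the other control libraries on the second principal component of scaled log2 counts, which held 14.1% of the variance. Cell type markers moved too. The summed RPKM of 5 reactive astrocyte markers was 447 to 643 in TBI and 35.9 to 47.3 in control, and all 5 were higher. Of 5 markers of infiltrating monocytes and macrophages all were higher (summed RPKM 52.7 to 71.0 in TBI, 5.98 to 7.69 in control), as were 3 of 7 endothelial markers (54.6 to 57.0 in TBI and 36.4 to 41.0 in control). Of 8 neuronal markers 4 were lower and none higher (1224 to 1346 in TBI and 1529 to 1591 in control). Also higher were 3 of 5 choroid plexus markers (253 to 623 in TBI and 90.3 to 168 in control) and all 3 neutrophil markers tested of 5 (33.9 to 100.2 in TBI and 0.567 to 2.63 in control). Other lists moved in both directions. Of 6 microglial markers 2 were higher and 3 lower, with P2ry12 among those lower (summed RPKM 72.7 to 76.3 in TBI and 75.8 to 80.4 in control). Of 6 astrocyte markers 3 were higher and 2 lower (343 to 352 in TBI and 385 to 407 in control), and of 6 meningeal markers 2 were higher and 2 lower (25.7 to 32.1 in TBI and 17.0 to 27.1 in control). Of 4 oligodendrocyte precursor markers 1 was higher and 1 lower (22.2 to 25.0 in TBI and 23.8 to 26.3 in control), and of 5 pericyte markers 1 was lower (36.6 to 38.6 in TBI and 38.1 to 42.5 in control). None of 6 oligodendrocyte markers was called (592 to 935 in TBI and 517 to 919 in control), and the 4 lymphocyte markers did not pass the filter (0.131 to 0.331 in TBI and 0.0818 to 0.212 in control). No marker with a row was at 0 in all libraries. Their part in the guidance gene results was not tested. In such bulk tissue fewer cells of a type and less RNA per cell cannot be told apart.

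The levels spanned a wide range. Epha4, a receptor that binds ephrins of both types, had the highest mean over the 6 libraries, 47.7 RPKM, followed by Sema7a (22.7), a semaphorin tethered to the membrane by a lipid anchor, and Robo2 (16.5). At the low end were Epha1 (0.227) and Efna4 (0.181). Of the families, the neuropilins and Slits were of middle level, between 2.76 and 10.5 RPKM. The order of neighbours is loose, since Robo2 and Sema6b, for example, overlap between 13.3 and 19.97 and between 15.1 and 17.9 RPKM.

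**Figure D2:**
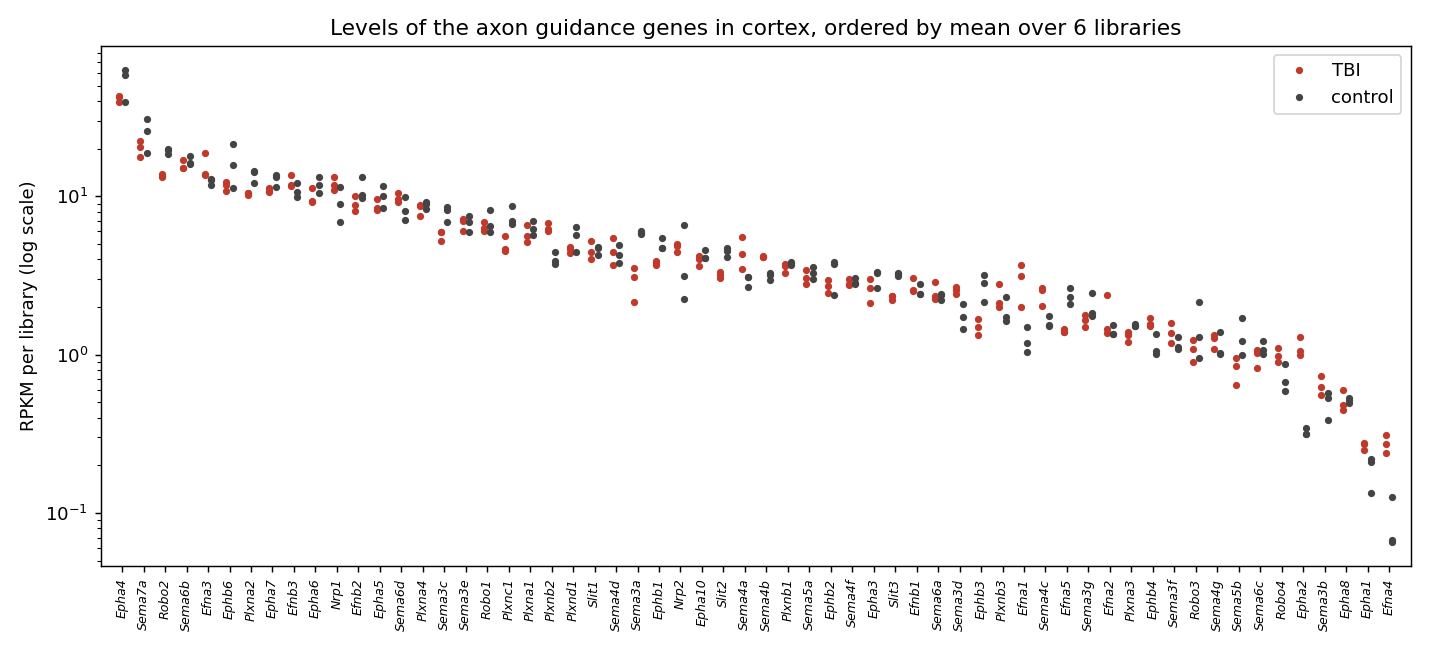
RPKM of each gene in each library on a log axis, TBI (red) and control (grey), ordered by the mean over 6 libraries. Epha4 is highest with a mean of 47.7 RPKM and Efna4 lowest with 0.181 RPKM.

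The 3 largest rises, Epha2, Efna4 and Efna1, were all in the ephrin-A system. Ephrin-A1, encoded by Efna1, is the ligand that EphA2 binds best, and both are known from epithelia and blood vessels. The 250 bases before the transcription start of each are shown because Epha2 and Efna1 had the largest rises among genes with a mean of at least 0.5 RPKM. They are from RefSeq (GRCm38.p6, gene strand), and the table matched 53 of the 60 genes, with 69 promoters. Capitals mark a cyclic AMP response element.

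Epha2, chr4:141300971-141301220, plus strand: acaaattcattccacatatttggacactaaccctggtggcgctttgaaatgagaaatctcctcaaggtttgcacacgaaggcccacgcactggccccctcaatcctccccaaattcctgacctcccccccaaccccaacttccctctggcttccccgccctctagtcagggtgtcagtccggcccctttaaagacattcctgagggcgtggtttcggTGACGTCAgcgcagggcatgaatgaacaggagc
Efna1, chr3:89280952-89281201, minus strand: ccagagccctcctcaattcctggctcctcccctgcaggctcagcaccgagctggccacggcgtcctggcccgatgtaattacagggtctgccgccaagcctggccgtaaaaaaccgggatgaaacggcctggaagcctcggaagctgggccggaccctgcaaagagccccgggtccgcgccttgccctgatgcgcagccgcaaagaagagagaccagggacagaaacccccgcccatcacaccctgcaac

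Motifs were searched on both strands as AP-1 (TGANTCA), the cyclic AMP response element (TGACGTCA), a STAT site (TTCCNGGAA) and a hypoxia element (ACGTG), and no match in the windows shown overlaps another. The Epha2 window held 1 cyclic AMP response element, whose first base lies 33 bases before the start, a motif in 1.55% of all 32851 promoters of the table. It held none of the other motifs. None of the 4 was found in the Efna1 window. Over the 69 promoters of the guidance genes, AP-1 letters were in 4.35%, against 6.75% of all promoters, and hypoxia letters in 17.4%, against 16.6%. The cyclic AMP response element was in 1 of the 69 (1.45%), a share near the 1.55% of all promoters. The STAT site was in none, against 0.913% of all promoters. A median of 64.0% of bases were G or C in the guidance gene windows, against 52.4% over all windows.

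Epha2 (chromosome 4, 141301221 to 141329384, plus strand; mm10, as for all positions given) had 0.997, 1.05 and 1.29 RPKM in the TBI libraries and 0.318, 0.343 and 0.315 RPKM in the control libraries. The groups did not overlap, and the lowest TBI library lay well above every control library. Its log2 fold change was 1.69 ± 0.15 (SE; edgeR adjusted p = 1.36e-05), a 3.23-fold difference. Efna1 (chromosome 3, 89271730 to 89280951, minus strand) had 3.70, 1.99 and 3.15 RPKM in TBI and 1.19, 1.04 and 1.5 RPKM in control, again without overlap, and TBI replicate 2 was the lowest of its group. The log2 fold change was 1.16 ± 0.22 (edgeR adjusted p = 0.00297).

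Efna1, Efna3 and Efna4 are neighbours on chromosome 3, on one strand within 66299 bases and with no other named row of the table between them. Efna4 was near the limit of detection, with 27, 36 and 30 counts in TBI and 7, 8 and 17 in control, and it was higher by 1.55 ± 0.39 on the log2 scale (edgeR adjusted p = 0.0163). It was not called without TBI replicate 2 (adjusted p = 0.0605), TBI replicate 3 (0.0522) or control replicate 1 (0.0641). Efna3, the ephrin-A with the highest level, had 18.8, 13.7 and 13.9 RPKM in TBI and 12.8, 11.7 and 12.8 RPKM in control. By RPKM, which lacks the scaling factors of the fit, its TBI libraries all lay above control, as for 32.9% of named rows tested. The difference of 0.24 ± 0.12 was not called (edgeR adjusted p = 0.228).

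Efna5, a ligand with a role in topographic maps, went the other way. It had 1.38, 1.38 and 1.45 RPKM in TBI and 2.64, 2.09 and 2.30 RPKM in control, with no overlap, and fell by 0.82 ± 0.11 on the log2 scale (edgeR adjusted p = 0.000336). Efna2 was not called, with 1.36 to 2.38 RPKM in TBI and 1.34 to 1.55 RPKM in control. Among the B-type ephrins, which span the membrane, Efnb2, a marker of arterial endothelium, had 8.09, 10.02 and 8.83 RPKM in TBI and 10.2, 13.2 and 9.73 RPKM in control. The groups overlapped, and it was lower by -0.37 ± 0.11 (edgeR adjusted p = 0.0336). That call was lost without TBI replicate 1, TBI replicate 3, control replicate 1 or control replicate 2 (adjusted p = 0.140, 0.0932, 0.0509 and 0.0903). Efnb3 had 11.8, 13.7 and 11.7 RPKM in TBI and 10.7, 12.1 and 9.92 RPKM in control, and neither it nor Efnb1 was called (log2 fold changes of 0.11 and 0.01).

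**Figure D3:**
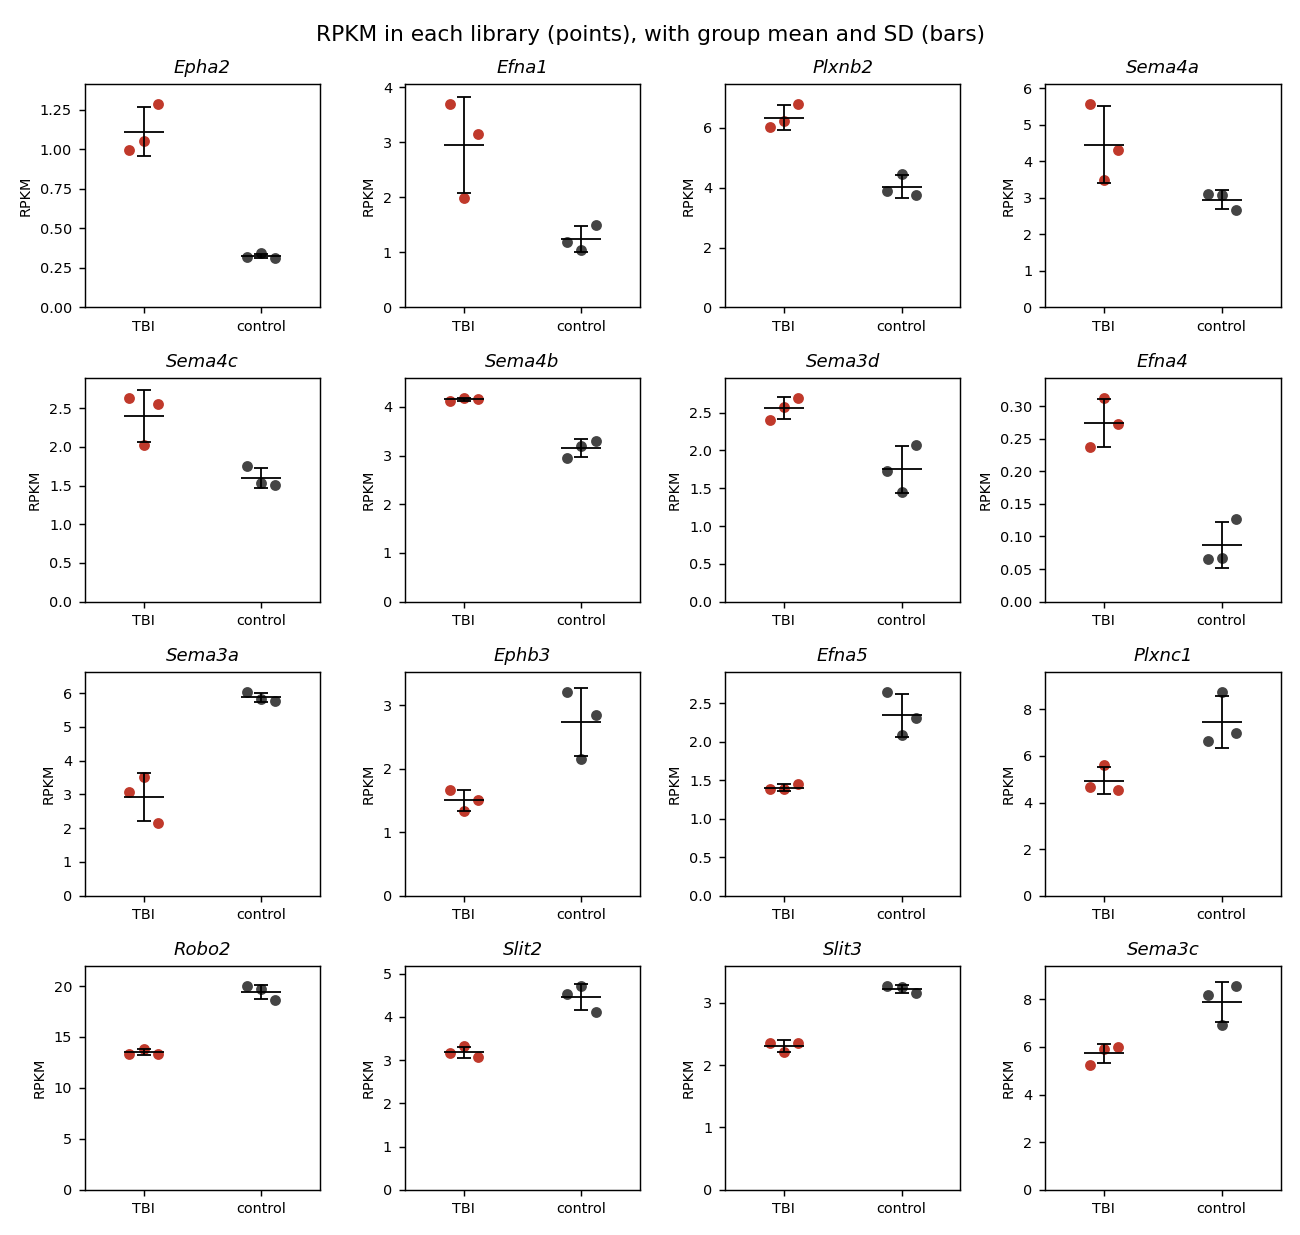
RPKM in each library (points) of 16 called genes, TBI left and control right, with the group mean and SD (bars); each axis starts at 0. In every panel the 3 TBI libraries lie wholly above or wholly below the 3 control libraries. The called genes whose groups overlap by RPKM, Efnb2, Epha6 and Ephb6, are not shown.

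Of the 14 Eph receptors, 1 was higher and 5 lower, and 11 had a log2 fold change below 0. Over named rows tested 8083 of 16941 were below 0, and 6887 of 12952 with a mean of at least 1 RPKM. Ephb3, which with Ephb1 and Ephb2 acts in commissural axons and at excitatory synapses, had the largest fall. It had 1.67, 1.33 and 1.5 RPKM in TBI and 3.21, 2.16 and 2.85 RPKM in control, without overlap, and fell by 0.95 ± 0.15 on the log2 scale (edgeR adjusted p = 0.000966). Ephb1 fell by 0.45 ± 0.09 (3.82 ± 0.109 RPKM in TBI and 4.94 ± 0.432 in control, mean ± SD, n = 3 libraries each; edgeR adjusted p = 0.00431). Ephb6, a receptor whose kinase domain is inactive, had 12.3, 10.8 and 11.8 RPKM in TBI and 21.3, 11.3 and 15.7 RPKM in control. Control replicate 2 lay within the TBI range, and the log2 fold change was -0.55 ± 0.18 (edgeR adjusted p = 0.0495). Leaving out control replicate 2 gave -0.77 (adjusted p = 0.00102), and leaving out any other single library ended the call (adjusted p = 0.0926 to 0.199), with -0.29 without control replicate 1. DESeq2 did not call it either (adjusted p = 0.180). Ephb4, the venous partner of Efnb2, lay above control in all TBI libraries (1.59 ± 0.0972 RPKM in TBI and 1.14 ± 0.183 RPKM in control) but was not called (log2 fold change 0.40 ± 0.13, edgeR adjusted p = 0.0602). It was called without control replicate 3, at 0.54 (adjusted p = 0.0213). With all libraries Ephb4 was called higher with the stricter filter and with a block on replicate number (edgeR adjusted p = 0.0333 and 0.0252).

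Epha4 had 42.5, 39.6 and 43.1 RPKM in TBI and 58.6, 39.4 and 63.2 RPKM in control, so that control replicate 2 lay below every TBI library and the other control libraries lay above them. Its log2 fold change of -0.45 ± 0.15 just missed the threshold (edgeR adjusted p = 0.0526). Without control replicate 2 the change was -0.65 (adjusted p = 0.000116), and over all alternatives the adjusted p ran from 0.000116 to 0.222. Epha4 was called lower in 6 of the 15 alternatives. Its transcript row, tested among transcripts, was called lower (log2 fold change -0.45, edgeR adjusted p = 0.0472). Ephb2 showed the same arrangement, with 2.45, 2.71 and 2.96 RPKM in TBI and 3.87, 2.40 and 3.74 RPKM in control, and was called only without control replicate 2 among the alternatives run (log2 fold change -0.59, adjusted p = 0.00172). Of the other EphA receptors, Epha7 (-0.31 ± 0.08, edgeR adjusted p = 0.0164) and Epha6 (-0.34 ± 0.10, adjusted p = 0.0329) were lower. Epha7 was not called without TBI replicate 1 or control replicate 3 (adjusted p = 0.0625 and 0.0829). Epha6 was not called without TBI replicate 1, TBI replicate 2, control replicate 2 or control replicate 3 (adjusted p = 0.132, 0.109, 0.0832 and 0.0908). Epha3, Epha5, Epha8, Epha10 and Epha1 were not called, at log2 fold changes of -0.33, -0.28, -0.10, -0.18 and 0.43. Epha3 was called lower without TBI replicate 3 and Epha5 without control replicate 1 (adjusted p = 0.0479 and 0.0232). With a block on replicate number both were called lower (edgeR adjusted p = 0.0240 and 0.0359).

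Among the 7 secreted class 3 semaphorins, most of which repel or attract axons through neuropilins and plexin-A receptors, 1 was higher and 2 were lower. Sema3a (chromosome 5, 13125376 to 13606234, plus strand), the best known growth cone collapsing factor, fell most of all 60 genes. It had 3.09, 3.52 and 2.16 RPKM in TBI and 6.02, 5.83 and 5.77 RPKM in control. The control libraries were close together and every TBI library lay far below them, lowest in TBI replicate 3. It fell by 1.09 ± 0.14 on the log2 scale (edgeR adjusted p = 0.000203). Sema3c had 5.26, 5.92 and 5.99 RPKM in TBI and 8.18, 6.93 and 8.54 RPKM in control, without overlap, and fell by 0.54 ± 0.10 (edgeR adjusted p = 0.00221).

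Sema3d rose. It had 2.40, 2.57 and 2.69 RPKM in TBI and 1.73, 1.45 and 2.08 RPKM in control, without overlap, a log2 fold change of 0.46 ± 0.13 (edgeR adjusted p = 0.0242). That call was lost without TBI replicate 2, TBI replicate 3 or control replicate 1 (adjusted p = 0.0556, 0.0806 and 0.0676). Sema3a, Sema3c, Sema3d and Sema3e all lie between 12383163 and 17730268 on chromosome 5, and Sema3e was not called, at 6.75 ± 0.600 RPKM in TBI and 6.75 ± 0.779 RPKM in control. Sema3b, Sema3f and Sema3g were not called either, at log2 fold changes of 0.28, 0.17 and -0.37.

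The 13 membrane semaphorins gave 3 higher and 1 lower. All 3 that rose are of class 4, whose receptors are mainly plexin-B proteins. Over named rows with a mean of at least 1 RPKM, 13.4% were higher and 13.0% lower. None of the 6 class 4 genes was called lower, which at that share says little for so few genes. Sema4a, also known from immune cells, had 5.57, 3.49 and 4.30 RPKM in TBI and 3.10, 3.09 and 2.66 RPKM in control (log2 fold change 0.51 ± 0.15, edgeR adjusted p = 0.0295). Sema4c, a ligand of plexin-B2, had 2.63, 2.02 and 2.55 RPKM in TBI and 1.75, 1.53 and 1.51 RPKM in control (0.51 ± 0.13, edgeR adjusted p = 0.0157). Sema4b had 4.13, 4.18 and 4.15 RPKM in TBI and 2.95, 3.20 and 3.30 RPKM in control (0.32 ± 0.08, edgeR adjusted p = 0.0201). The groups did not overlap for any of the 3. These rises are near the threshold. Sema4a was not called without any one of TBI replicates 1 and 3 and the 3 control libraries, with adjusted p from 0.0515 to 0.148, and its log2 fold change was 0.31 without TBI replicate 1. It was not called without FANTOM3 rows either (adjusted p = 0.0507). Sema4b was not called without TBI replicate 1, TBI replicate 3 or control replicate 1 (adjusted p = 0.0644, 0.0584 and 0.0841). Sema4c was not called without TBI replicate 1, TBI replicate 3 or control replicate 3 (adjusted p = 0.0798, 0.0624 and 0.0705).

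Sema4d, a plexin-B1 ligand made by oligodendrocytes and lymphocytes, was not called, with 4.44, 3.68 and 5.43 RPKM in TBI and 4.93, 3.77 and 4.24 RPKM in control. Sema4f, Sema4g and Sema5a were not called either, at log2 fold changes of -0.10, 0.03 and -0.17. Sema5b was the lower one of the membrane semaphorins, with 0.959, 0.845 and 0.641 RPKM in TBI and 1.22, 1.70 and 0.994 RPKM in control. It fell by 0.75 ± 0.19 on the log2 scale (edgeR adjusted p = 0.0171), a call lost without TBI replicate 3 or control replicate 2 (adjusted p = 0.0687 and 0.0579). Sema7a had 22.2, 17.7 and 20.4 RPKM in TBI and 30.9, 18.9 and 26.0 RPKM in control, with control replicate 2 inside the TBI range. It was not called (-0.42 ± 0.15, edgeR adjusted p = 0.0894) but was without control replicate 2 (-0.60, adjusted p = 0.00230). With all libraries Sema7a was called lower by DESeq2 (adjusted p = 0.0285). In edgeR it was called lower without a filter (adjusted p = 0.0465) and with a block on replicate number (0.00461). None of the 4 class 6 genes, Sema6a, Sema6b, Sema6c and Sema6d, was called with all libraries (log2 fold changes -0.26 to 0.15), and Sema6d, at 0.27, was called higher without control replicate 2 (adjusted p = 0.0484).

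Of the 9 plexins, the signalling receptors for semaphorins, 1 was higher and 3 lower. Plxnb2 (chromosome 15, 89155546 to 89180788, minus strand), a receptor of class 4 semaphorins found on glia and myeloid cells as well as neural progenitors, had 6.01, 6.22 and 6.79 RPKM in TBI and 3.90, 4.46 and 3.74 RPKM in control. The groups did not overlap, and the log2 fold change was 0.57 ± 0.08 (edgeR adjusted p = 0.000473). Plxnc1, the receptor of Sema7a, had 4.66, 5.60 and 4.54 RPKM in TBI and 6.66, 8.73 and 6.98 RPKM in control, without overlap, and fell by 0.67 ± 0.11 (edgeR adjusted p = 0.000864). All 4 plexin-A genes, the partners of neuropilins, had log2 fold changes below 0, as did 8083 of 16941 named rows tested. Of the plexin-A genes 2 were called. Plxna2, the plexin of highest level, had 10.5, 10.5 and 10.3 RPKM in TBI and 14.4, 14.1 and 12.2 RPKM in control, without overlap, and fell by 0.46 ± 0.08 (edgeR adjusted p = 0.00157). Plxna3 fell by 0.31 ± 0.10 (edgeR adjusted p = 0.0433), a call kept only without TBI replicate 2 when single libraries were left out (adjusted p without each of the others 0.0554 to 0.156). Plxna1 and Plxna4, at -0.21 and -0.16, were not called. Plxnb1, Plxnb3 and Plxnd1 were not called, at -0.18, 0.21 and -0.34. Plxnd1, a receptor of vessels and neurons, was called lower without control replicate 3 (adjusted p = 0.00510). With all libraries Plxnd1 was called lower by DESeq2 (adjusted p = 0.0230). In edgeR it was called lower without a filter (adjusted p = 0.0317) and with a block on replicate number (0.0276).

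Neither neuropilin was called. Nrp1, the co-receptor of Sema3a and of vascular endothelial growth factor, had 13.2, 10.9 and 11.8 RPKM in TBI and 8.98, 6.84 and 11.4 RPKM in control. Its log2 fold change was 0.32 ± 0.15 (edgeR adjusted p = 0.198). Nrp1 was called higher without control replicate 3 (0.52, adjusted p = 0.0295) and with a block on replicate number (0.35, edgeR adjusted p = 0.0273). Nrp2, a co-receptor of Sema3c and Sema3f, had 4.97, 4.82 and 4.42 RPKM in TBI and 2.25, 6.61 and 3.16 RPKM in control. Control replicate 2 lay above every TBI library and the other control libraries below them. The log2 fold change of 0.17 ± 0.27 became 0.71 without control replicate 2 (adjusted p = 0.00241) and -0.10 without control replicate 1.

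**Figure D4:**
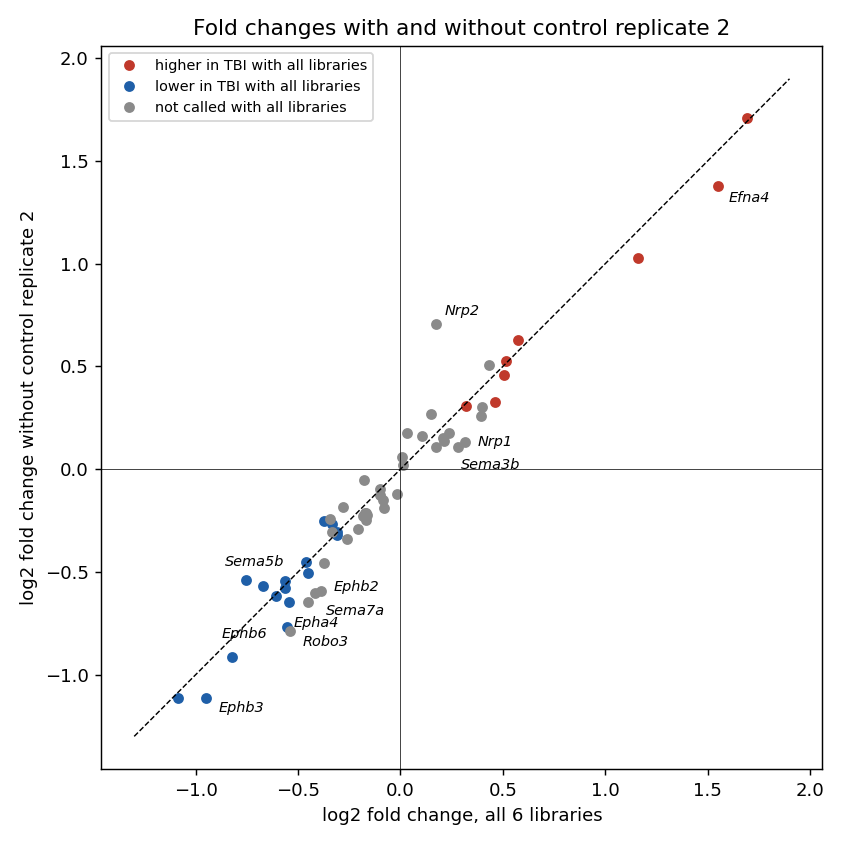
Log2 fold change (TBI over control) of each gene with all 6 libraries (x axis) and without control replicate 2 (y axis); the dashed line marks equal values. Nrp2 lies at 0.17 with all libraries and 0.71 without that library, Epha4 at -0.45 and -0.65, and Epha2 and Robo2 lie near the line.

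Control replicate 2 bore on more of these genes. Among the 54 genes with a mean of at least 1 RPKM, its RPKM was at least 0.5 lower on the log2 scale than the mean of the other control libraries for 6 (11.1%) and at least 0.5 higher for 2 (3.7%). The shares over named rows of that level were 2.44% and 2.55%. Those lower were Robo3, Ephb6, Ephb2, Epha4, Sema7a and Nrp1, and those higher were Nrp2 and Sema5b. Sema3b and Efna4, of lower level, were also at least 0.5 lower. For Efna4, however, control replicate 1 lay lower still, with 7 counts against 8 in control replicate 2. The 8 neuronal markers summed to 1529 RPKM in that library and the 6 oligodendrocyte markers to 517 RPKM, each the lowest sum of the control libraries. The highest control sums were 1591 and 919 RPKM. Control replicate 2 also had the lowest control sum of astrocyte, reactive astrocyte, oligodendrocyte precursor, neutrophil and choroid plexus markers. Its sum was the highest for monocyte and macrophage markers and for lymphocyte markers. The neuronal markers did not move together there: Gad2, an enzyme of inhibitory neurons, was at 38.2 RPKM, against 17.4 and 19.9 RPKM in the other control libraries, and Slc17a7, a transporter of excitatory neurons, was at 131.9 RPKM, against 161.8 and 144.9 RPKM. The part of these markers in the result was not tested. Without that library 9 genes were higher and 16 lower. It removed the calls of Efnb2, Epha6, Plxna3, Sema4a and Sema5b and added Epha4, Ephb2, Nrp2, Robo3, Sema6d and Sema7a.

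Of the 3 Slits and 4 Robos, 3 were lower and none was higher, and 6 of the 7 log2 fold changes were below 0. Over named rows tested 8083 of 16941 were below 0. Robo2 (chromosome 16, 73892061 to 75447302, minus strand), the Robo of highest level, had 13.3, 13.8 and 13.4 RPKM in TBI and 19.97, 19.7 and 18.6 RPKM in control. Both groups were tight and did not overlap, and it fell by 0.61 ± 0.07 on the log2 scale (edgeR adjusted p = 8.73e-05). Slit2 (chromosome 5, 47982855 to 48305778, plus strand) had 3.17, 3.32 and 3.06 RPKM in TBI and 4.54, 4.71 and 4.12 RPKM in control and fell by 0.56 ± 0.08 (edgeR adjusted p = 0.000350). Slit3 had 2.36, 2.2 and 2.35 RPKM in TBI and 3.26, 3.25 and 3.16 RPKM in control and fell by 0.56 ± 0.08 (edgeR adjusted p = 0.000609). Neither Slit overlapped between the groups.

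Slit1, the Slit of highest level, was not called, with 4.03, 4.48 and 5.24 RPKM in TBI and 4.81, 4.29 and 4.69 RPKM in control (-0.09 ± 0.10, edgeR adjusted p = 0.647). Robo1 had 6.01, 6.93 and 6.27 RPKM in TBI and 5.93, 8.21 and 6.46 RPKM in control and was not called (-0.18 ± 0.10, edgeR adjusted p = 0.291). Robo3 was not called, at -0.54 ± 0.25 (edgeR adjusted p = 0.168), with 1.23, 0.903 and 1.09 RPKM in TBI and 2.16, 0.954 and 1.30 RPKM in control. It was called lower without control replicate 2 (-0.79, adjusted p = 0.0194) and with a block on replicate number (-0.47, edgeR adjusted p = 0.0257). Robo4, the endothelial Robo, which lies next to Robo3 on chromosome 9 on the other strand, was at 0.993 ± 0.0989 RPKM in TBI and 0.714 ± 0.149 RPKM in control (0.39 ± 0.17, edgeR adjusted p = 0.149). By RPKM, which lacks the scaling factors of the fit, its TBI libraries all lay above control, as for 32.9% of named rows tested. Robo4 was called higher without control replicate 1 (0.58, adjusted p = 0.0444).

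In all, by RPKM, the TBI libraries lay above every control library for 12 of the 60 genes and below for 13. Over named rows tested the shares were 32.9% above and 12.7% below, and with a mean of at least 1 RPKM they were 31.7% and 14.8%. RPKM lacks the scaling factors of the fit, which were 1.03 in each TBI library and 0.955 to 0.998 in control. Dividing by them would lower TBI against control, so these counts and shares depend on the scaling. For 13 genes the call held in every alternative that tested them: Epha2, Efna1 and Plxnb2 were higher, and Sema3a, Sema3c, Ephb1, Ephb3, Efna5, Plxna2, Plxnc1, Robo2, Slit2 and Slit3 were lower. Of the 36 genes not called, 24 were called in none. The same shares over all named rows were not counted.

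The transcript table added little on isoforms. The 60 genes had 89 transcript rows, of which 13 were higher and 23 lower, and over all transcript rows tested 10.1% were higher and 9.81% lower. These counts moved when single libraries were left out, with 6 higher without TBI replicate 3, 7 without TBI replicate 1 or control replicate 1, 21 without control replicate 2, and 15 lower without TBI replicate 1. In the 16 genes with several rows, log2 fold changes of isoforms of a gene differed by at most 0.08, and no gene had isoforms with different calls. Isoform rows of a gene can share reads, and how many they share was not measured. Epha7 has a short row (NM_001122889, 3272 bases) and a long row (NM_010141, 6732 bases), with log2 fold changes of -0.31 and -0.32. Slit2 and Slit3 host the microRNA rows Mir218-1 and Mir218-2. Nrp1 and Robo2 also host microRNA rows, and 6 other guidance genes (Epha1, Epha6, Epha10, Nrp2, Plxna4 and Sema6d) overlap named rows on the opposite strand. Rows of FANTOM3 clones overlap 35 of the 60 genes, 30 on the same strand and 18 on the opposite one. The most were 33 on Robo2, 26 on Robo1, 15 on Efna5 and 9 each on Nrp1 and Slit2. Epha3, Epha6, Sema3a, Sema6a and Sema6d had 8 each. The strand setting of the counting is not given in the sources used here, so reads of such partners, named or clone rows, cannot be told apart.

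Beyond the 60 genes, 102 genes of 7 further guidance lists were tested, and 13 were higher and 19 lower. Over all named rows tested 15.4% were higher and 10.7% lower, against 13 and 19 of 102, with a median log2 fold change of -0.08. Of 13 netrins and netrin receptors, 2 were lower, the netrin receptor genes Unc5d (-0.50 ± 0.12, edgeR adjusted p = 0.0116) and Dscam (-0.30 ± 0.09, adjusted p = 0.0353), and none was higher. Neither of the 2 repulsive guidance molecule genes, Rgma and Rgmb, was called (0.14 and -0.24). Of 10 genes of myelin inhibitors and Nogo receptors, 4 were lower and none higher. Rtn4r, the Nogo receptor, was at 12.4 ± 1.30 RPKM in TBI and 18.8 ± 2.04 RPKM in control (-0.69 ± 0.11, edgeR adjusted p = 0.000810). Its partner Lingo1 (-0.56), the myelin glycoprotein gene Omg (-0.49) and the proteoglycan receptor gene Ptprs (-0.24) were the others.

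Effectors of these receptors moved both ways. Of 26 semaphorin and plexin effectors with a row, of 27 listed, 7 were higher and 5 lower. Fes, a kinase downstream of plexin-A, was at 1.70 ± 0.228 RPKM in TBI and 0.513 ± 0.0166 RPKM in control (1.65 ± 0.15, edgeR adjusted p = 1.46e-05), and the small GTPase Rras (1.12) and the receptor kinase Erbb2 (log2 fold change 1.1) were also higher. Mical2, an actin oxidase, was lower (-0.95). Fes and Rras are known from myeloid or vascular cells, whose markers did not all move one way. All 5 monocyte and macrophage markers, all 3 neutrophil markers tested and 3 of 7 endothelial markers were higher. Of 6 microglial markers 2 were higher and 3 lower, and of 5 pericyte and smooth muscle markers none was higher and 1 lower. The part of those cells was not tested. Of 22 Eph and ephrin effectors, 2 were higher and 7 lower. Ngef, which encodes ephexin, the exchange factor bound to EphA4, was at 19.8 ± 1.94 RPKM in TBI and 36.7 ± 4.22 RPKM in control (-0.97 ± 0.10, edgeR adjusted p = 3.53e-05). The chimaerin gene Chn2 (-0.64) and the ubiquitin ligase gene Pdzrn3 (-0.69) were lower and the exchange factor gene Vav3 was higher (0.95). Of 18 Slit and Robo effectors, 3 were higher and 1 lower, with Prrg4 (1.85), a relative of fly Commissureless, the actin regulator Vasp (1.47) and Myo9b (0.53) higher and the deubiquitinase gene Usp33 (-0.26) lower.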

How the data were processed

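RNA of 3 TBI and 3 control cortex libraries was compared. Reads were aligned with TopHat2 to mm10, per the submitters' processing notes. Counter, strand setting and annotation: not given in the sources used here. Gene and transcript tables deposited by the authors hold counts and, beside each count, its RPKM, per the file headers. Counts were tested in edgeR 4.0.16 (R 4.3.3) by its quasi-likelihood F test after filterByExpr (at least 10 counts, 15 in total) with TMM factors; p-values were adjusted by Benjamini-Hochberg over every row tested, and rows under 0.05 were called. Fold changes come from this fit and can differ slightly from ratios of RPKM. Whether groups overlap was judged on RPKM, which lacks the TMM factors. Alternatives were RLE and upper-quartile factors, DESeq2 1.42.0, limma-voom (limma 3.58.1), limma on log2(RPKM + 1), no filter, a stricter filter (mean RPKM of at least 1), FANTOM3 rows left out, a replicate block, and each library left out. Values in every library are given for up to 10 genes each way with the largest called changes and a mean of at least 0.5 RPKM in the higher group, the highest gene of each family and 11 genes often studied after injury. Up to 4 called genes of each further list are named; other values complete the account of the members. Of the 7 further lists, 1 is counted in their total and not reported here on its own. Members and lists were chosen with earlier results of these data known. Tested on simulated data (TBI against control, 42255 gene rows), the fit recovered 68 of 104 rows with a log2 change of 1 and 91 of 92 with 2; false calls made up 12.2%. For 48541 transcript rows it recovered 65 of 103 and 83 of 93, with 14.5% false. In each simulation 200 rows were changed, a far smaller share than the 17.5% of gene rows called in the data. Recovery and false calls depend on that share, so these figures cannot be read as rates for the calls made here.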

Additional observations from a re-analysis of the deposited data

How the results depend on the processing

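Every called gene kept its direction under all alternatives in which it was tested. Leaving out single libraries gave 3 to 9 guidance genes higher and 11 to 16 lower, 6 to 21 of their transcript rows higher and 15 to 22 lower, and 2378 to 4064 gene rows lower. With limma on log2(RPKM + 1), 10 guidance genes, 12 further pathway genes and 2148 gene rows were lower; the cause was not tested. Without FANTOM3 rows 2367 gene rows were lower, among fewer rows tested. With a replicate block 10 guidance genes were higher and 22 lower. The labels give the replicate number no meaning, and deviations of same-numbered libraries correlated at 0.054, 0.055 and 0.049, although each library correlated best with its own number. Some genes that were not called changed sign. Over single libraries left out, log2 fold changes ran from -0.095 to 0.35 for Efna2, -0.094 to 0.061 for Efnb1, -0.10 to 0.71 for Nrp2, -0.17 to 0.11 for Sema4d, -0.042 to 0.17 for Sema4g and -0.10 to 0.074 for Sema6a. With limma on RPKM, Sema4d was at 0.049 and Sema3e at 0.0022. Sema4d was at 0.030 with the stricter filter, Efnb1 at -9.59e-05 without a filter, and Efnb1 at -0.00734 and Sema6a at -0.000452 without FANTOM3 rows. Depth limits Efna4 and Epha1, which had 7 to 64 counts per library.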
